A study of Arabidopsis thaliana with 24 samples.

Results

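The genes described here are TUB6 (AT5G12250), which encodes a beta-tubulin, and AT1G09200, a histone H3 gene that RefSeq lists under the name H3.1. Each had 1 probe, so they are 2 of the 576 probes of the array and 2 of the 181 probes that the probe table names. They were chosen by measured values, and the contrast used for this is not stated. It is taken here to be their lower level with flg22 at 3 h in both genotypes. That contrast, and any other that uses arrays at 3 h, is therefore described without a test of the 2 genes, and only contrasts within 30 min were tested for them.

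Arabidopsis thaliana seedlings, 10 days old, had been moved into fresh liquid medium 48 h before they were treated with 1 µM flg22 or with water (mock). Total RNA of their leaves was hybridised to 24 arrays in 8 groups of 3. The groups were mpk11 with flg22 for 30 min and its mock, wild type with flg22 for 30 min and its mock, mpk11 with flg22 for 3 h and its mock, and wild type with flg22 for 3 h and its mock. The mpk11 line is a T-DNA insertion mutant (SALK049352) of a MAP kinase gene, represented by this single line, and it shares the Col ecotype with the wild type. Arrays carry set numbers 1 to 3, and no label says whether the sets were grown apart, so the p-values speak only for the scatter among these arrays, part of which may be technical.

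Tubulin alpha and beta subunits assemble into microtubules, which form the spindle of dividing plant cells and the cortical array that guides cellulose deposition in expanding ones. Histone H3.1 is laid into chromatin mainly during DNA replication, so its genes are most active in cells that prepare to divide, whereas the variant H3.3 is also laid down outside replication. The peptide flg22 is a piece of bacterial flagellin that the receptor kinase FLS2 recognises, and continued exposure to it is known to stunt seedlings.

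All values are the deposited ones on a log scale, taken as log2 although no source states the base. Precision is limited by having 3 arrays in each group. The median of an array was 4.02 to 4.17 with flg22 and 3.34 to 3.76 in mock. The size of any flg22 difference therefore depends on whether arrays are scaled to a common median. As deposited, the median flg22 difference over all probes was smaller than that gap, at 0.07 in mpk11 and 0.06 in wild type at 30 min. At 3 h it was 0.20 in mpk11 and 0.14 in wild type. The flg22 treatment itself was visible: of 5 early flg22-response genes listed, 4 were measured (STZ, WRKY22, WRKY29 and WRKY53, all transcription factors), and all 4 rose in each genotype at both times (limma, Benjamini-Hochberg adjusted p below 0.05), with a median difference of 3.54 in mpk11 and 3.49 in wild type at 30 min, against medians of 0.07 and 0.06 over all probes. WRKY29 in wild type at 30 min lost its call with median centring (0.31, limma adjusted p = 0.109) and with quantile normalization (0.35, limma adjusted p = 0.0664). MPK11 itself had no named probe, and neither had any of 6 leaf or 9 root and meristem markers, so neither the genotype nor the tissue label could be checked.

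At 3 h both genes were lower with flg22 than in mock in each genotype and in all 3 sets. TUB6 had 7.03, 6.65 and 6.81 in mpk11 with flg22 for sets 1, 2 and 3, against 7.69, 7.34 and 7.31 in mpk11 mock. The wild-type arrays had 7.08, 6.80 and 6.82 with flg22, against 7.45, 8.07 and 7.28 in mock. Every flg22 array lay below every mock array of its genotype, and the wild-type mock array of set 2 stood highest of the 12 arrays at this time.

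AT1G09200 had 5.88, 5.90 and 5.87 in mpk11 with flg22 at 3 h, against 6.79, 6.57 and 6.24 in mpk11 mock. In wild type it had 5.89, 5.93 and 5.74 with flg22, against 6.77, 6.35 and 6.48 in mock. Here too the groups did not overlap, and the flg22 arrays lay closer together (SD 0.02 in mpk11 and 0.10 in wild type) than the mock arrays (SD 0.28 and 0.21, n = 3 each).

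**Figure D1:**
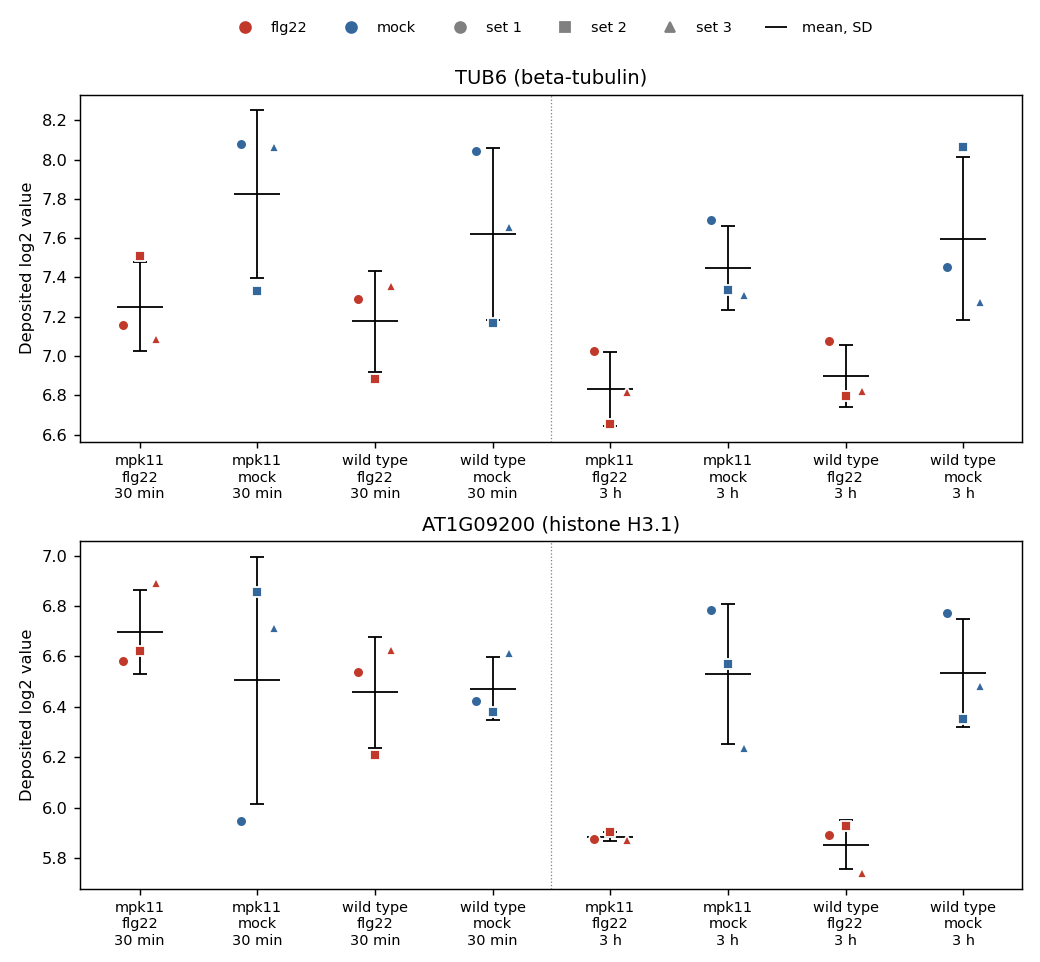
Deposited log2 values of TUB6 (top) and AT1G09200 (bottom) on each of 24 arrays, by genotype, treatment and time; symbols mark the sets, and black lines give the mean and SD of each group (n = 3). The 6 flg22 arrays at 3 h hold the lowest values of AT1G09200 (5.74 to 5.93), while TUB6 is also lower with flg22 at 30 min, with overlapping groups.

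In numbers, TUB6 averaged 6.83 ± 0.19 with flg22 and 7.45 ± 0.21 in mock in mpk11 at 3 h (SD, n = 3 each), a difference of -0.62 (SE 0.24), which is 0.653 of the mock level if the base is 2. In wild type it averaged 6.90 ± 0.16 with flg22 and 7.60 ± 0.41 in mock (SD, n = 3 each), a difference of -0.70 (SE 0.24) or 0.616 of mock. The wild-type size leaned on set 2, where TUB6 differed by -1.27, against -0.37 in set 1 and -0.45 in set 3. It was -0.46 without the wild-type mock array of set 2 and -0.41 without the whole set. In mpk11 the sets were closer, at -0.67, -0.68 and -0.50. The RNA is of whole leaves, so fewer cells that express a gene and less RNA per cell cannot be told apart.

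AT1G09200 averaged 5.89 ± 0.02 with flg22 and 6.53 ± 0.28 in mock in mpk11 at 3 h (SD, n = 3 each), a difference of -0.64 (SE 0.19) or 0.640 of mock. In wild type it averaged 5.85 ± 0.10 with flg22 and 6.54 ± 0.21 in mock (SD, n = 3 each), a difference of -0.68 (SE 0.19) or 0.623 of mock. The sets differed by -0.91, -0.67 and -0.36 in mpk11 and by -0.88, -0.43 and -0.74 in wild type. The means of the 2 genes differed by similar amounts in this contrast, which is taken to have chosen both, TUB6 with the wider spread between arrays. With arrays or sets left out, the wild-type difference ran from -0.86 to -0.41 for TUB6 and from -0.81 to -0.56 for AT1G09200.

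Differences of this kind were not rare on the array. In mpk11 9.55% and in wild type 12% of all probes had every flg22 array below every mock array at 3 h, and 6.42% passed the limma test as lower in mpk11 and 6.42% in wild type. The choice of the members is taken to have used this contrast, so the 2 members among them are no result. By size of the difference, TUB6 ranked 27th and AT1G09200 26th from the lowest of 576 probes in mpk11, and 24th and 25th in wild type. Of the probes with a name, 11 were lower in mpk11 and 10 in wild type, 7 of them in both genotypes.

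Values on both sides of an adjusted p of 0.05 at 3 h are given here as a description. TUB6 (-0.62), the dehydrin gene COR47 (-0.57) and the thioredoxin gene ATHM2 (-0.35) were the last named genes inside it in mpk11. AT1G54010 (-0.49), AT4G17470 (-0.28) and AT5G65360 (-0.67) were the first outside it. In wild type AT3G12390 (-0.67), TUB6 (-0.70) and AT1G54010 (-0.57) were just inside, and AT-HF (-0.41), AT5G65360 (-0.56) and COR47 (-0.44) just outside.

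For 30 min, a contrast the choice is taken not to have used, the values of each gene follow. The difference between the 2 genes was not tested. TUB6 had 7.16, 7.51 and 7.09 in mpk11 with flg22, against 8.08, 7.33 and 8.06 in mpk11 mock. In wild type it had 7.29, 6.88 and 7.36 with flg22, against 8.04, 7.17 and 7.66 in mock. The flg22 values were lower in all 3 sets of wild type and in 2 of 3 sets of mpk11, and in both genotypes the groups overlapped.

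The mean of TUB6 at 30 min was 7.25 ± 0.23 with flg22 and 7.82 ± 0.43 in mock in mpk11 (SD, n = 3 each), a difference of -0.57 (SE 0.24; 95% interval -1.06 to -0.08). It did not pass the test over all probes (limma adjusted p = 0.0966). In wild type the means were 7.18 ± 0.26 with flg22 and 7.62 ± 0.44 in mock, a difference of -0.45 (95% interval -0.94 to 0.04), which did not pass either (limma adjusted p = 0.281). In mpk11 set 2 went the other way (0.18, against -0.92 and -0.98), and the difference was -0.95 and passed without set 2 (limma adjusted p = 8.20e-04), as it did without the mpk11 mock array of that set (-0.82, limma adjusted p = 0.0141). In wild type the difference was -0.24 without the mock array of set 1, -0.29 without set 1, -0.30 without the flg22 array of set 2 and -0.67 without the mock array of set 2. It did not pass in any of these, and the lowest limma adjusted p with an array or set left out was 0.0517.

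AT1G09200 stayed near its mock level at 30 min in the deposited values. It had 6.58, 6.62 and 6.89 in mpk11 with flg22, against 5.95, 6.86 and 6.71 in mpk11 mock. The wild-type arrays had 6.54, 6.21 and 6.63 with flg22, against 6.42, 6.38 and 6.61 in mock. The groups overlapped in both genotypes, and the mpk11 mock array of set 1 was the lowest of the 12 arrays at this time.

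The differences of AT1G09200 at 30 min were 0.19 in mpk11 (95% interval -0.21 to 0.59; limma adjusted p = 0.633) and -0.01 in wild type (95% interval -0.41 to 0.38; limma adjusted p = 0.985). Without the mpk11 mock array of set 1 the first was -0.09 (limma adjusted p = 0.912). At this time 0 of the 2 members were called, against 1.56% of all probes called lower in mpk11 and 0.174% in wild type. The intervals are wide. In the deposited values a change of the size seen at 3 h lies outside that of AT1G09200 but inside that of TUB6 in both genotypes. Median centring moved AT1G09200 to -0.31 in mpk11 and -0.49 in wild type, so this is stated for the deposited scaling only. The 3 h size itself comes from the contrast taken to have chosen the genes.

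**Figure D2:**
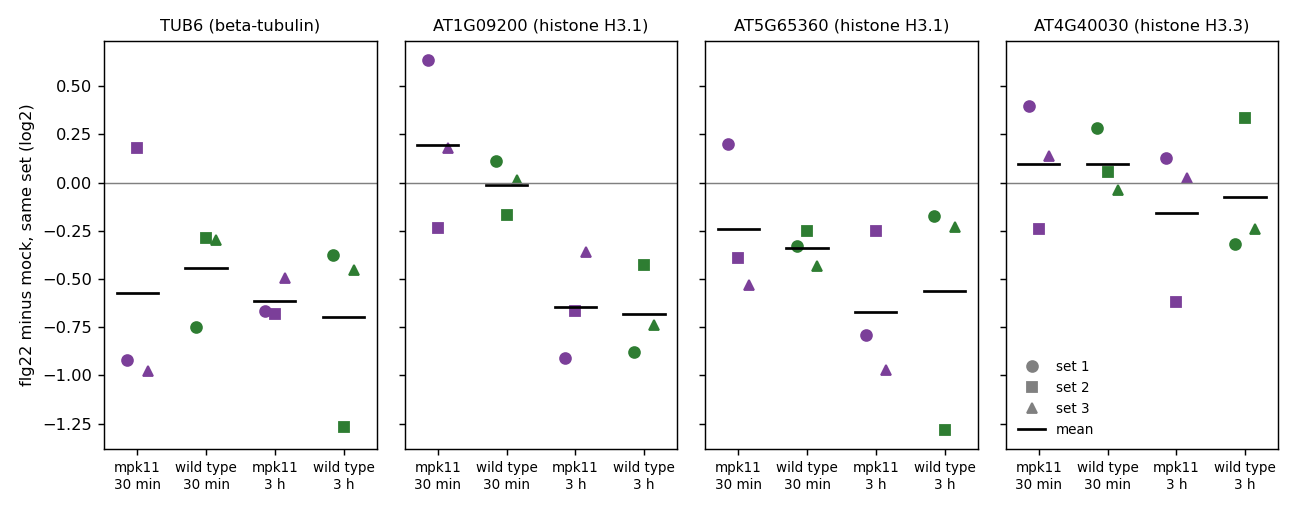
Difference of flg22 minus mock (log2) within each set for TUB6 and the 3 measured histone H3 genes, for mpk11 (purple) and wild type (green) at 30 min and 3 h; bars are means of 3 sets. TUB6 and AT1G09200 lie below 0 in all sets at 3 h, AT5G65360 likewise, and AT4G40030 on both sides of 0.

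Side by side, the response of TUB6 was -0.57 at 30 min and -0.62 at 3 h in mpk11, and -0.45 and -0.70 in wild type. That of AT1G09200 was 0.19 and -0.64 in mpk11, and -0.01 and -0.68 in wild type. The response at 3 h less that at 30 min came to -0.04 (SE 0.33) in mpk11 and -0.25 (SE 0.33) in wild type for TUB6, and to -0.84 (SE 0.27) in mpk11 and -0.67 (SE 0.27) in wild type for AT1G09200. No test is given, since the 3 h values are taken to have chosen the genes. Without set 2 the TUB6 values were 0.37 in mpk11 and 0.11 in wild type, so no direction can be read from them. For AT1G09200 in mpk11 the value was -0.48 without set 1 and -0.56 without the mpk11 mock array of set 1 at 30 min.

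**Figure D3:**
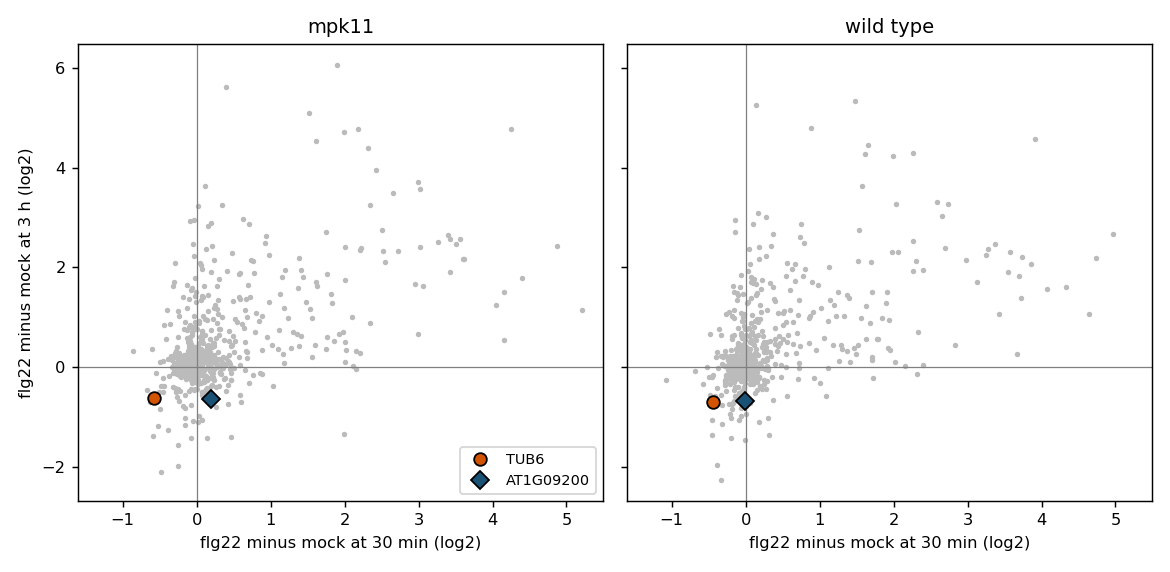
Difference of flg22 minus mock at 30 min (horizontal axis) and at 3 h (vertical axis), in log2 units, for all 576 probes (grey) in mpk11 (left) and wild type (right). Both genes lie at about the same height below 0, TUB6 to the left of the vertical line (-0.57 and -0.45) and AT1G09200 close to it (0.19 and -0.01).

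The order of the 8 groups by their means was as follows. For TUB6 the 4 mock groups came first, with means from 7.82 (mpk11 mock at 30 min) to 7.45 (mpk11 mock at 3 h). Both flg22 groups at 30 min followed at 7.25 and 7.18, and both at 3 h were lowest at 6.90 and 6.83. Every group overlapped its neighbour in that order. For AT1G09200 the first 6 groups lay between 6.70 and 6.46, each overlapping the next, and then came a step of 0.57 to the flg22 groups at 3 h, at 5.89 and 5.85.

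Across the experiment AT1G09200 ranged from 5.74 to 5.93 on the 6 flg22 arrays at 3 h and from 5.95 to 6.89 on the 18 other arrays, without overlap. The lowest of the 18 was the mpk11 mock array of set 1 at 30 min. Such a separation in this direction was found for 4.17% of all probes, and it rests on the contrast taken to have chosen the gene. For TUB6 1 of the 18 arrays, wild type with flg22 at 30 min in set 2, fell within the range of the 6 arrays (6.65 to 7.08).

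The scaling between arrays changed calls at 30 min. Centring each array on its median moved the median flg22 difference of all probes by -0.50 in mpk11 and -0.47 in wild type at 30 min, and by -0.62 and -0.53 at 3 h. TUB6 then passed as lower at 30 min in both genotypes, by -1.07 in mpk11 (limma adjusted p = 0.00133) and -0.92 in wild type (limma adjusted p = 0.00511). AT1G09200 differed by -0.31 in mpk11 (limma adjusted p = 0.153) and passed at -0.49 in wild type (limma adjusted p = 0.0314).

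Against the median probe, the centred difference of TUB6 at 30 min was still the larger one. After centring the median probe stood at -0.43 in mpk11 and -0.42 in wild type, close to the values of AT1G09200. As deposited the median probe stood at 0.07 and 0.06. With quantile normalization TUB6 passed at -0.90 in mpk11 and -0.77 in wild type, and AT1G09200 at -0.40 in mpk11, where its sign turned, and at -0.52 in wild type (limma adjusted p = 0.0455 and 0.0126). Centring on 15 housekeeping genes left the calls as they were, with TUB6 at -0.66 in mpk11 and -0.49 in wild type (limma adjusted p = 0.0635 and 0.235) and AT1G09200 at 0.11 and -0.06. Which scaling fits these arrays was not tested. At 3 h, the contrast taken to have chosen them, both genes stayed lower under each scaling, from -0.62 to -1.37 in mpk11 and from -0.68 to -1.27 in wild type. The median probe at 3 h was then lower too, at -0.42 in mpk11 and -0.39 in wild type after median centring. After quantile normalization it stood at -0.21 in each genotype.

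**Figure D4:**
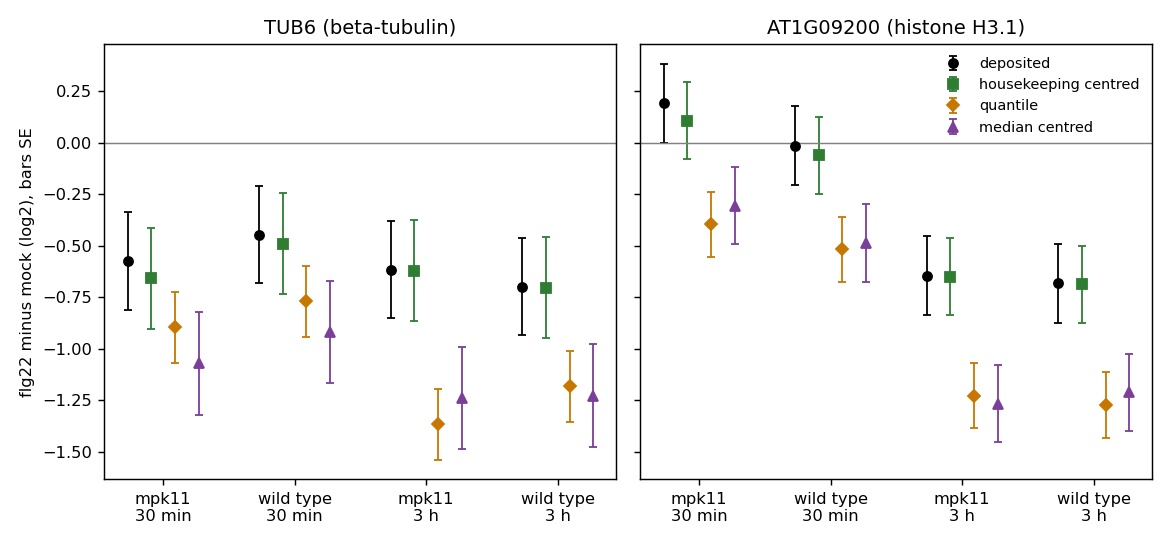
Difference of flg22 minus mock (log2, bars SE from limma) of TUB6 (left) and AT1G09200 (right) under 4 scalings of the arrays. All points at 3 h lie below 0, while at 30 min AT1G09200 lies near or above 0 in the deposited and housekeeping-centred values and below 0 under quantile and median centring.

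The genotypes were then compared directly, which asks whether loss of MPK11 changed the 2 genes. With flg22 at 3 h TUB6 averaged 6.83 in mpk11 and 6.90 in wild type, a difference of -0.07 (SE 0.24). AT1G09200 averaged 5.89 in mpk11 and 5.85 in wild type, a difference of 0.03 (SE 0.19). In mock at 3 h the differences were -0.15 for TUB6 (SE 0.24) and -0.01 for AT1G09200 (SE 0.19). Over all 4 conditions TUB6 differed by 0.01 (SE 0.12) and AT1G09200 by 0.07 (SE 0.10). These values hold arrays taken to have chosen the genes and are given without a test.

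At 30 min with flg22 TUB6 differed by 0.07 between mpk11 and wild type (95% interval -0.42 to 0.57) and AT1G09200 by 0.24 (95% interval -0.16 to 0.64), and AT1G09200 was higher in mpk11 in all 3 sets. In mock at 30 min TUB6 differed by 0.20 (95% interval -0.29 to 0.69), also higher in all 3 sets, and AT1G09200 by 0.03 (95% interval -0.37 to 0.43). None of these passed (limma adjusted p from 0.886 to 0.990 over the 2 genes and both treatments). The mock difference of TUB6 was -0.02 without the wild-type mock array of set 2 and 0.45 without the mpk11 mock array of that set. That of AT1G09200 ran from -0.19 to 0.31 when arrays or sets were left out. With flg22 the values ran from -0.20 to 0.25 for TUB6 and from 0.11 to 0.34 for AT1G09200.

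The flg22 response at 30 min, mpk11 less wild type, was -0.13 for TUB6 (95% interval -0.82 to 0.57) and 0.21 for AT1G09200 (95% interval -0.36 to 0.77; limma adjusted p = 0.999 for both). In each of these 6 comparisons of the genotypes 0% of all probes passed in limma, and from 6 to 50 probes had an unadjusted p below 0.05. The intervals at 30 min reach up to about the size of the 3 h response, so they do not show that the genotypes were alike.

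In mock seedlings of both genotypes together the level at 3 h less that at 30 min was -0.20 (SE 0.17) for TUB6 and 0.04 (SE 0.14) for AT1G09200. These values take the mock arrays at 3 h from the contrast taken to have chosen the genes and are not tested. The TUB6 value was -0.53 without set 2, and that of AT1G09200 changed sign without set 1 (-0.23).

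Few other genes of growth and division had a named probe. The probe table left 395 of the 576 probes unnamed, so any such genes among those would be missed. Of 15 tubulin genes listed TUB6 alone had a named probe, and of 14 other core histone genes, 15 cell cycle genes and 8 actin genes none had. Of 14 histone H3 genes 3 had one: AT1G09200, AT5G65360, which RefSeq also calls H3.1, and AT4G40030, which it calls H3.3. Histone H3 genes encode closely similar proteins, as do beta-tubulin genes. The probe sequences were not used here, so it is uncertain which family members each probe reports.

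AT5G65360 was lower with flg22 in every set at 3 h, without passing the test. It had 7.20, 6.85 and 6.93 in mpk11 with flg22, against 7.99, 7.10 and 7.90 in mpk11 mock, which is a difference of -0.67 (95% interval -1.25 to -0.09). In wild type it had 7.02, 6.85 and 7.11 with flg22, against 7.19, 8.13 and 7.33 in mock, a difference of -0.56 (95% interval -1.14 to 0.02). Neither passed (limma adjusted p = 0.0587 in mpk11 and 0.129 in wild type).

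Once sets were entered as a random replicate block, AT5G65360 passed in mpk11 (limma adjusted p = 0.0273) and not in wild type (limma adjusted p = 0.0696). After median centring it passed in both, at -1.29 and -1.09 (limma adjusted p = 5.93e-04 and 0.00276), and likewise after quantile normalization, at -1.25 and -0.97 (limma adjusted p = 8.50e-05 and 0.00116). In wild type the mock array of set 2 that was highest for TUB6 was highest for AT5G65360 as well, at 8.13.

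AT4G40030 differed by -0.16 in mpk11 (95% interval -0.55 to 0.24; limma adjusted p = 0.571) and by -0.07 in wild type (95% interval -0.47 to 0.32; limma adjusted p = 0.829) at 3 h, and its groups overlapped. The median-centred values of AT4G40030 were -0.78 and -0.60 and passed (limma adjusted p = 6.46e-04 and 0.00557), and quantile values of -0.57 and -0.40 did not (limma adjusted p = 0.0534 and 0.178). In the deposited values neither AT5G65360 nor AT4G40030 passed at 3 h, and AT1G09200 was not tested at that time. At 30 min 0 of the 3 H3 genes passed, with a median difference of 0.10 in mpk11 and -0.01 in wild type, against 0.07 and 0.06 over all probes. After median centring AT5G65360 passed at 30 min too, at -0.74 in mpk11 and -0.81 in wild type (limma adjusted p = 0.0325 and 0.0233). After quantile normalization it passed in wild type (-0.68, limma adjusted p = 0.0216) and not in mpk11 (-0.41, limma adjusted p = 0.146). The difference between the H3.1 and H3.3 probes was not tested.

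The single listed gene of cell expansion with a named probe was EXO, which is known to promote leaf growth and to respond to brassinosteroids. It moved the other way from TUB6 at 30 min, with a difference of 2.12 in mpk11 and 2.40 in wild type (SE 0.21 each), and at 3 h it differed by 0.02 and 0.05 without passing (limma adjusted p = 0.956 and 0.906). The 3 h sign turned with scaling. Median centring gave EXO -0.60 in mpk11, which passed, and -0.48 in wild type, which did not (limma adjusted p = 0.0271 and 0.0741). Quantile normalization gave EXO -0.69 and -0.61, and both passed (limma adjusted p = 0.0161 and 0.0321). SPR1, a microtubule-associated protein gene picked after the names of the probes were seen, did not pass in any flg22 comparison. It differed by 0.25 in mpk11 and -0.11 in wild type at 30 min, and by 0.08 and 0.01 at 3 h (SE 0.16 each).

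The 2 genes resembled each other over the 8 group means (Pearson r = 0.746), with r = 0.447 over the 24 arrays as deposited. After median centring r over the arrays was 0.765. Centring takes the same array median, higher with flg22, from both genes, so the rise is no sign of likeness. AT4G40030, which passed in no flg22 response as deposited, likewise went from r = 0.741 to 0.963 with AT1G09200 over the 8 group means. Within groups the deviations of TUB6 and AT1G09200 from the group mean had r = -0.139 over the 24 arrays. All arrays share one platform, and the group means share the arrays taken to have chosen the genes. The r values are descriptions.

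Among named probes, those most like TUB6 over the 8 group means were AT1G54010, which RefSeq lists as GDSL-like lipase 23 (r = 0.980), AT1G29950 (r = 0.937), the GDSL lipase family gene AT3G16370 (r = 0.934), the H3.1 gene AT5G65360 (r = 0.917) and RAP (r = 0.860). AT1G29950 differed little with flg22, by -0.18 at 30 min and -0.08 at 3 h in mpk11 and by -0.13 and -0.23 in wild type. Its SE was 0.21 each, and it did not pass. AT1G54010 had nearly the same response as TUB6, -0.46 at 30 min and -0.49 at 3 h in mpk11 and -0.42 and -0.57 in wild type. AT1G54010 alone of the 5 was again among the 5 most like TUB6 after median centring (r = 0.994). The others then were AT4G20300 (r = 0.986), AT5G05010 (r = 0.983), AT4G38250 (r = 0.976) and SEC5A (r = 0.973). None of these passed in any flg22 response as deposited. Centring takes the same array median from every probe, so likeness after it is no sign of a shared response.

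Most like AT1G09200 were RAP (r = 0.934), AT3G16370 (r = 0.912), AT5G65360 (r = 0.892), the dehydrin gene COR47 (r = 0.877) and AT3G18050 (r = 0.865). RAP differed by -0.16 at 30 min and -0.81 at 3 h in mpk11 and 0.05 and -0.71 in wild type. AT3G18050 differed by -0.15 and -1.16 in mpk11 and by -0.20 and -1.01 in wild type. Of these 5 genes, those other than COR47 were also among the 5 most like AT1G09200 after median centring. In place of COR47 stood AT2G43945 (r = 0.973), which passed in no flg22 response as deposited. RAP, AT3G16370 and AT5G65360 stood in both lists.

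**Figure D5:**
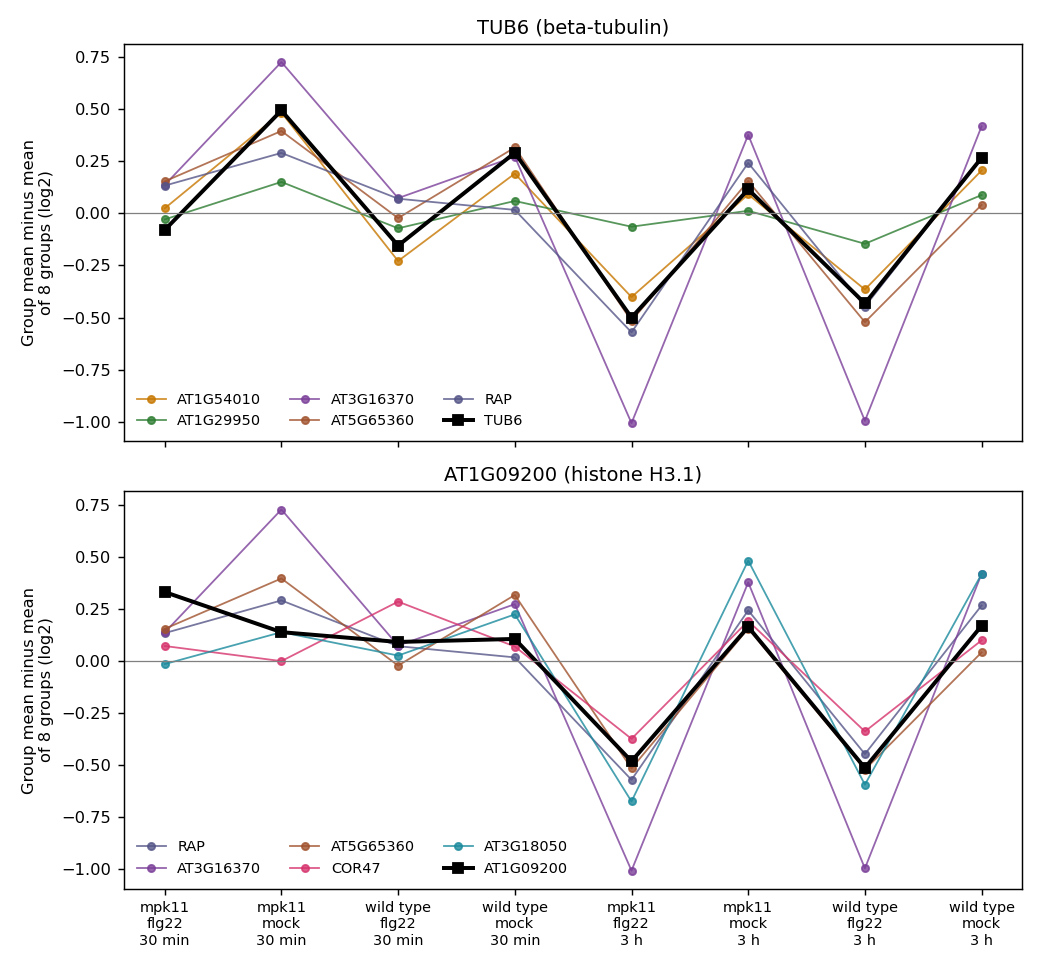
Mean of each of the 8 groups (n = 3 arrays each), less the mean over the 8 groups, in log2 units, for TUB6 (top, black) and AT1G09200 (bottom, black) and the 5 named genes most like each (colours); lines join the groups of one gene and mark no course in time. The means of TUB6 and AT1G54010 lie below those of their mock groups at both times, without passing the test at 30 min, and those of AT1G09200 lie lowest with flg22 at 3 h.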

How the data were processed

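The authors' deposited table gave 1 value per probe and array on a log scale, taken as log2 since it ranges from 0.450 to 11.4. Per the labels, RNA carried one dye (Alexa555) and a Cy5 oligonucleotide served to find spots of bad quality for removal. Scanner, background correction, normalization and log base are not given in the sources that were used. No array duplicated another and 0 values were missing. The probe table named 181 probes, of which 180 matched RefSeq (TAIR10.1) by gene identifier. The members and gene lists were chosen with earlier results of these data known.

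One limma 3.58.1 model (R 4.3.3) of 8 group means over 24 arrays gave every difference, with empirical Bayes moderation and Benjamini-Hochberg adjustment over 576 probes at a threshold of 0.05. For the members, tests are reported within 30 min only. The comparisons of the genotypes at 3 h and over all 4 conditions were planned as tests. They share arrays with the contrast taken to have chosen the members and are given as descriptions. The fit was tested on simulated data. Named genes were the members, measured genes of the fixed lists, the 5 named probes most correlated with each member over group means, and those at the threshold at 3 h.

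Same-numbered arrays deviated together (every correlation over 0.1) in 7 of 8 pairs of groups, the exception being mpk11 against wild type with flg22 at 3 h. The correlations in these 7 went down to 0.16, so the set numbers may pair the samples but do not settle it. The main fit left the set out. The pairing comes from the data. Alternatives were median centring, quantile normalization, centring on 15 housekeeping genes (chosen after earlier results were known), a filter that kept the 432 brightest probes, a prior with trend and robust fit, the set as a fixed or random replicate block, the compared groups alone, and leaving out each array or set. Promoter motifs were not searched, because no sequences were used here.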

Additional observations from a re-analysis of the deposited data

How the results depend on the processing

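For TUB6 and AT1G09200 in 13 comparisons, alternatives other than leaving out arrays gave 190 values with the same call or within the spread between arrays. The exceptions came from scaling. For the flg22 response at 30 min, median centring gave TUB6 -1.07 in mpk11 and -0.92 in wild type and AT1G09200 -0.49 in wild type. Quantile normalization gave TUB6 -0.90 in mpk11 and -0.77 in wild type, and AT1G09200 -0.52 in wild type. All 6 newly passed, and in mpk11 AT1G09200 turned to -0.40. At 3 h median centring gave TUB6 -1.24 in mpk11 and -1.23 in wild type and AT1G09200 -1.27 and -1.21. Quantile normalization gave TUB6 -1.37 and -1.18 and AT1G09200 -1.23 and -1.27, and TUB6 in mpk11 -0.47 for 3 h less 30 min. Probes passing as lower at 30 min numbered 9 in mpk11 and 1 in wild type as deposited, 266 and 253 with median centring, 170 and 157 with quantile normalization, and 13 and 4 with housekeeping centring. At 3 h they numbered 37 and 37 as deposited, 281 and 256 with median centring, 194 and 184 with quantile normalization, and 39 and 37 with housekeeping centring. The cause was not tested.

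The set as a replicate block changed no call of the 2 members: TUB6 at 30 min in mpk11 stayed at -0.57 with a limma adjusted p of 0.0619 (fixed block) and 0.0547 (random block, correlation 0.240). With arrays or sets left out, TUB6 at 30 min ran from -0.95 to -0.37 in mpk11. For 3 h less 30 min TUB6 ran from -0.30 to 0.37 in mpk11 and from -0.57 to 0.11 in wild type, and AT1G09200 from -1.04 to -0.48 in mpk11. For mock at 3 h less 30 min TUB6 ran from -0.53 to -0.02 and AT1G09200 from -0.23 to 0.22. At 3 h the responses ran from -0.71 to -0.49 in mpk11 and from -0.86 to -0.41 in wild type for TUB6, and from -0.79 to -0.51 and from -0.81 to -0.56 for AT1G09200. The centring on the housekeeping list of the whole series was not run.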
